A study of Mus musculus with 6 samples.

Results

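Transcripts of 10 genes that handle iron or bind metals were followed in mouse retina: ferritin heavy and light chain (Fth1, Ftl1), transferrin (Trf) and its receptor (Tfrc), the metal importers Slc11a2 and Slc39a14, the iron exporter Slc40a1, and the metallothioneins Mt1, Mt2 and Mt3. The genes were taken as a list of names, with every array probe annotated to one of those names or to its RefSeq transcript. They are 10 of the 24078 genes tested, and hold 14 of 39429 probes and 23 of 43020 spots. Every member passed the filter on dim probes, and its tested probe was well above background in both dyes on all 6 arrays.

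The study set out to find changes in retinal gene expression caused by SH-42 and SH-80, which are known here by these code names only. Right eyes of adult male C57BL/6 mice received SH-42, SH-80 or, as the control, saline (PBS) in the vitreous, at a labelled dose of 1 µM and with 12 mice per group. Retinas were collected on day 7 and pooled by 4, so a value averages over 4 eyes. Each of the 6 dual-colour Agilent arrays, 3 for SH-42 and 3 for SH-80, set a pool labelled with a compound against a pool labelled control.

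Iron enters most cells bound to transferrin through the transferrin receptor, crosses membranes through carriers such as Slc11a2 and Slc39a14, is kept in ferritin shells built of heavy and light chains, and leaves through Slc40a1, also called ferroportin. Metallothioneins are small cysteine-rich proteins that bind zinc and copper, and the transcription of Mt1 and Mt2 is known to be raised by metals, glucocorticoids and inflammation. In the retina, photoreceptors and the pigment epithelium use much iron, glia exchange it with the vessels, and macrophages recycle it.

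The labels put the compound's RNA in Cy3 (green) and the control RNA in Cy5 (red) on every array, with no dye exchange. All ratios below are log2 of Cy3 over Cy5, so "higher" means higher in the channel labelled with the compound. The value table deposited for the series runs as Cy5 over Cy3 (r from -0.9998 to -0.9995 with the Cy3 over Cy5 ratio, across probes). The scanner's own ratio also runs red over green, so this direction does not show which channel held the compound's RNA. The channels are thus known from the labels alone, and if the compound's RNA was in Cy5 every sign below would turn. Right eyes of 12 control mice, pooled by 4, give fewer control pools than there were arrays. Control pools were thus shared between arrays, unless more control mice were used than the labels state. The labels do not say which arrays shared a pool or how replicates were separated. The main fit took the arrays as independent, so p-values measure the spread between these arrays only, including those between the compounds. SH-42 replicate 1 stood apart: across genes, r with the other 5 arrays was -0.16 to 0.163, against 0.471 to 0.866 for the 10 pairs that leave it out. It shared slide 1 with SH-42 replicate 2, while SH-42 replicate 3 and the 3 SH-80 arrays were on slide 2. The 7 rod markers were above background on all arrays, and summed over the list their Cy3 signal lay at 19.18 to 19.38 (log2), against 18.73 to 19.49 for Cy5.

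No member differed between a compound and control, or between the compounds, past an adjusted p of 0.05 (limma, Benjamini-Hochberg over all genes). That is 0 of 10 members in each comparison, where 0.602% of all genes passed for SH-42, 14.7% for SH-80 and 0% between the compounds. The values behind this had a shared form. On SH-42 replicate 1 the ferritins, Trf, Slc40a1, Mt1 and Mt2 were lower in Cy3 than in Cy5, and on the 3 SH-80 arrays the same 6 genes were higher in Cy3 on every array. Tfrc, the receptor, had the opposite signs on the same arrays by its brightest probe. Its other probes were also positive on SH-42 replicate 1, at 0.47 and 0.40, but their SH-80 means were positive too, 0.19 and 0.08.

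**Figure D1:**
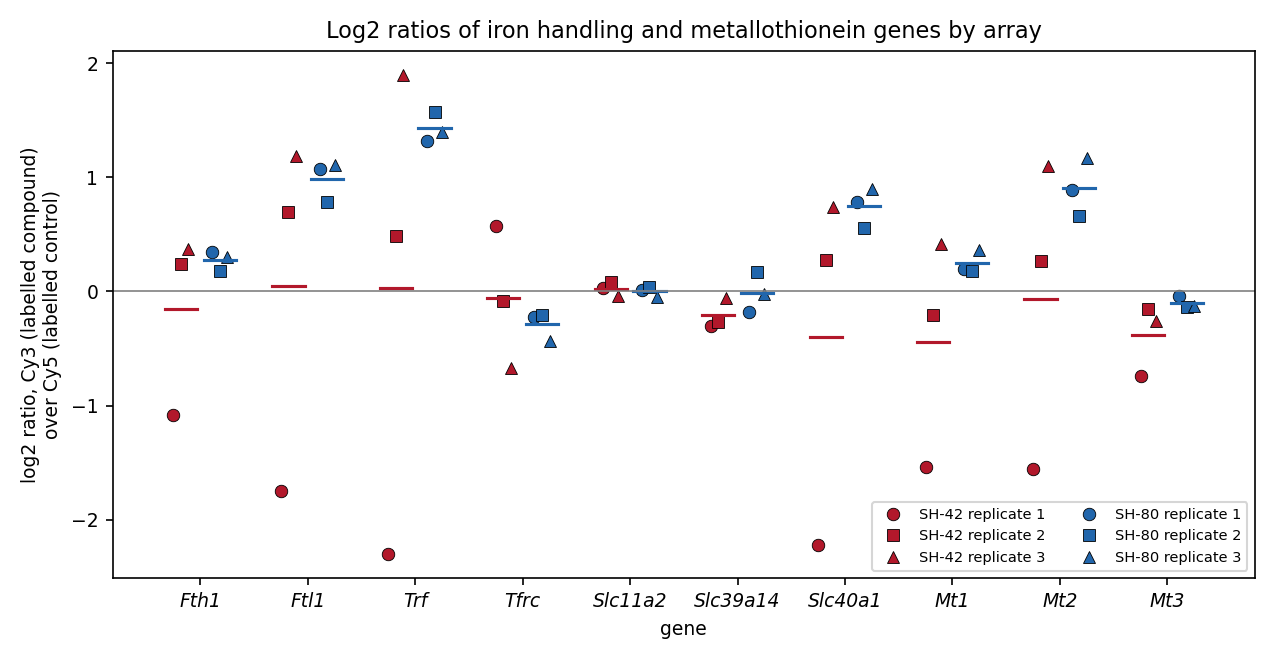
Log2 ratio of Cy3 (labelled compound) over Cy5 (labelled control) for each gene, with 1 point per array, SH-42 left and SH-80 right, and a line at the mean of 3 arrays. The circle of SH-42 replicate 1 lies lowest for 8 of the 10 genes, down to -2.30 for Trf, while the SH-80 points of a gene lie close together.

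Fth1, the chain of the ferritin shell that oxidises iron as it enters, had log2 ratios of -1.08, 0.24 and 0.37 on SH-42 replicates 1 to 3 and of 0.35, 0.18 and 0.30 on SH-80 replicates 1 to 3. The 2 groups overlapped, and SH-42 replicate 1 was the single negative array. The mean was -0.16 ± 0.804 with SH-42, against 0.28 ± 0.0873 with SH-80 (SD, n = 3 each). In the limma fit the adjusted p was 0.725 for SH-42 against control and 0.497 for SH-80 against control. Centring each array on its median in place of loess turned the SH-80 mean to -0.16, so the direction of Fth1 rests on the dye normalization.

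Ftl1, the chain that helps the iron core form, spread more widely. Its log2 ratios were -1.75, 0.70 and 1.19 with SH-42, against 1.07, 0.78 and 1.11 with SH-80. Again SH-42 replicate 1 alone was negative, and the other 5 arrays lay within 0.484 log2 units of each other. The SH-80 mean of 0.99 ± 0.182 (SD, n = 3) is a 1.98-fold higher Cy3 signal, with an adjusted p of 0.224 in limma. The SH-42 mean was 0.05 (95% interval -1.21 to 1.30). Each ferritin gene was measured by 1 probe, and the reference lists ferritin pseudogenes of both chains (Fth-ps2, Fth-ps3, Ftl1-ps1, Ftl1-ps2 and Ftl2-ps), so signal from such copies cannot be told apart from that of the genes.

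Trf, the iron carrier of plasma that the retina also makes, had the widest range of the 10 genes. The ratios were -2.30, 0.49 and 1.90 with SH-42, against 1.32, 1.57 and 1.40 with SH-80. The SH-42 arrays therefore lay on both sides of all SH-80 arrays. Before normalization the Cy3 spot of Trf read 30235, 49690 and 50110 on SH-42 replicates 1 to 3, and the Cy5 spot read 269089, 55020 and 22735. On SH-80 replicates 1 to 3 the Cy3 spot read 49331, 51550 and 50802, and the Cy5 spot 37034, 31897 and 30062. The brightness of SH-42 replicate 1 in Cy5 was thus present in the scanned signals. The SH-80 mean was 1.43 ± 0.129 (SD, n = 3), which is 2.69-fold, and its interval in the limma fit ran from -0.26 to 3.12 (adjusted p = 0.196). A second Trf probe gave 1.47 for SH-80 and 0.04 for SH-42, close to the 1.43 and 0.03 of the probe used.

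Tfrc, which takes up transferrin-bound iron and whose transcript is known to be stabilised when iron is short, ran the other way. Its ratios were 0.57, -0.08 and -0.67 with SH-42, against -0.22, -0.21 and -0.43 with SH-80. SH-42 replicate 1 was the single positive array, and the SH-80 values lay inside the SH-42 range. The tested probe is printed 10 times on each array, with an SD between spots of 0.0397 to 0.0494, so spot noise was small beside the differences between arrays. The mean for SH-80 was -0.28 (95% interval -0.80 to 0.23; limma adjusted p = 0.376). The 2 other Tfrc probes gave 0.19 and 0.08 for SH-80 and 0.22 and 0.12 for SH-42, of the opposite sign to the -0.28 and -0.06 of the brightest one, and the mean of all probes was 0.09 for SH-42, so no direction of Tfrc is certain.

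Slc11a2, the proton-coupled importer of ferrous iron also called DMT1, stayed closest to 0. Its ratios were 0.03, 0.08 and -0.04 with SH-42, against 0.01, 0.04 and -0.05 with SH-80. The difference between the compounds was 0.03, with an interval of -0.15 to 0.21. A dimmer Slc11a2 probe gave 0.04 for SH-42, 0.10 for SH-80 and -0.05 between the compounds. Slc39a14, a zinc transporter that also carries iron not bound to transferrin, had ratios of -0.30, -0.27 and -0.06 with SH-42, against -0.18, 0.17 and -0.02 with SH-80. All 3 SH-42 arrays were negative, and the groups overlapped. The SH-42 mean of -0.21 ± 0.134 (SD, n = 3) had an adjusted p of 0.212 in limma.

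Slc40a1, the only known exporter of iron from mammalian cells and abundant in iron-recycling macrophages, had ratios of -2.22, 0.28 and 0.74 with SH-42, against 0.78, 0.56 and 0.90 with SH-80. SH-42 replicate 1 was again far below the rest. Its unnormalized Cy5 spot read 3456 there, against 449 and 434 on SH-42 replicates 2 and 3 and 502, 556 and 409 on the SH-80 arrays. The Cy3 spot ranged over all 6 arrays only from 542 to 585. The mean was -0.40 ± 1.59 with SH-42, against 0.75 ± 0.177 with SH-80 (SD, n = 3 each), with limma adjusted p of 0.647 and 0.350 against control.

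Mt1 and Mt2 lie next to each other on chromosome 8, after Mt4 and Mt3 in the order of the RefSeq annotation. Since Mt1 and Mt2 varied together over the arrays and Mt3 over a narrower range, the promoters of the 3 are shown, from the RefSeq table of build GRCm38.p6. Capitals mark matches, on either strand, to a core of the metal response element, TGCACNC or TGCGCNC, and in Mt2 also a match to the antioxidant response core TGACNNNGC. No 2 of the capital runs overlap. The windows printed are the 250 bases before each annotated start and, for Mt1, the first 30 bases after it.

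Mt1, chr8:94178839-94179088, plus strand: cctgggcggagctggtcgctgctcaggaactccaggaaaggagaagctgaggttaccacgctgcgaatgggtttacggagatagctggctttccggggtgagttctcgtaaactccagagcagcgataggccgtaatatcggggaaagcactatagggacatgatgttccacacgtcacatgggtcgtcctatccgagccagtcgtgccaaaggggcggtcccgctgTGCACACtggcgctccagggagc

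Mt1, chr8:94179089-94179118, plus strand: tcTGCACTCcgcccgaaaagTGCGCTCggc

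Mt2, chr8:94172368-94172617, plus strand: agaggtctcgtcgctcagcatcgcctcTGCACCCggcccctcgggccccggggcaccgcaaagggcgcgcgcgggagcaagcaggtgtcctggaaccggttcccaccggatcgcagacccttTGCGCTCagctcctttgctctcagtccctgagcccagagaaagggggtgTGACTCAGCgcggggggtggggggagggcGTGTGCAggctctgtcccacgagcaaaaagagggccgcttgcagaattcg

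Mt3, chr8:94152357-94152606, plus strand: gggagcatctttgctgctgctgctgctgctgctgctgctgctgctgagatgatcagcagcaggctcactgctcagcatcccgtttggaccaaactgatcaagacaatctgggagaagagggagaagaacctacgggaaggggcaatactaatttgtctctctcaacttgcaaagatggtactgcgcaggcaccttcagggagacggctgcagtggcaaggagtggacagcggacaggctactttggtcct

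Over the whole window of 300 bases, 250 before and 50 after the start, Mt2 held 4 metal response cores and 1 antioxidant core, Mt1 held 3 metal response cores, and Mt3 held 1, at position 28 after its start. The first core was present in 12.6%, the second in 15.4% and the antioxidant core in 12.4% of all 32851 promoter windows in the table. At least 3 metal response cores stood in 1.97% of windows and at least 4 in 0.517%. Of the other members, Fth1 and Ftl1 had none in their windows, and 1 of the 2 Tfrc windows had 2 that overlap on opposite strands. The table had windows for 6 of the 10 members. A match of letters describes the sequence, and binding was not measured.

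Mt1, a broadly expressed metal-binding protein, had ratios of -1.54, -0.21 and 0.42 with SH-42, against 0.20, 0.18 and 0.36 with SH-80. The 3 SH-80 arrays were all positive, and SH-42 arrays lay on both sides of them. The mean was -0.44 ± 1.00 with SH-42, against 0.25 ± 0.0954 with SH-80 (SD, n = 3 each). Against control, limma gave an adjusted p of 0.432 for SH-42 and 0.627 for SH-80. With median centring in place of loess the SH-80 mean of Mt1 was -0.16, so its sign rests on the normalization.

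Mt2, the companion isoform, had ratios of -1.56, 0.27 and 1.1 with SH-42, against 0.89, 0.66 and 1.17 with SH-80. It kept the order of arrays seen for Mt1 within SH-42, with replicate 1 lowest and replicate 3 highest, at larger positive values. The SH-80 mean of 0.91 ± 0.254 (SD, n = 3) is 1.87-fold, with an adjusted p of 0.205 in limma. Mt1 and Mt2 resemble each other in sequence, and each was read by 1 probe, so hybridisation of one transcript to the other's probe was not tested.

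Mt3, the isoform known from brain neurons and astrocytes, behaved otherwise. Its ratios were -0.74, -0.15 and -0.26 with SH-42, against -0.04, -0.14 and -0.13 with SH-80. All 6 arrays were negative, and Mt3 was the single member whose SH-42 arrays all lay below its SH-80 arrays, a pattern that 5.44% of all genes had. The gap was narrow, with -0.15 the highest SH-42 value and -0.14 the lowest SH-80 value. The SH-42 mean was -0.39 ± 0.315 (SD, n = 3), or 1.31-fold lower, with an adjusted p of 0.150 in limma. The adjusted p passed the threshold with no background correction (-0.41, adjusted p = 0.0483, with 13.2% of all genes), with the scanner's processed signals (-0.46, 0.0471, with 13.4%), with median centring in place of loess (-0.63, 0.0135, with 37.5%) and in the authors' deposited value table with its sign turned (-0.48, 0.0498, with 15.7%). The SH-42 value without replicate 1 was -0.21 (adjusted p = 0.133).

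The spread between arrays came mainly through Cy5, the channel labelled control. For Trf the normalized log2 signal in Cy3 was 15.22, 15.95 and 16.00 on SH-42 replicates 1 to 3 and 16.05, 16.01 and 16.04 on SH-80 replicates 1 to 3. In Cy5 it was 17.52, 15.46 and 14.10 with SH-42, against 14.73, 14.44 and 14.64 with SH-80. The range of Trf was thus 0.829 log2 units wide in Cy3 and 3.414 in Cy5. That of Mt2 was 0.142 wide in Cy3 and 2.615 in Cy5, that of Slc40a1 0.330 and 2.968, and that of Tfrc 0.038 and 1.215. The span was wider in Cy5 than in Cy3 for all 10 members, as it was for 79.1% of all genes, whose median spans were 0.179 in Cy3 and 0.384 in Cy5. On SH-42 replicate 1 the Cy3 signal was also the lowest of the 6 arrays for Fth1, Ftl1, Trf, Mt1, Mt2 and Mt3. Without that array the Cy3 span of Trf was 0.099 and its Cy5 span 1.355, while the Slc40a1 spans became alike at 0.330 in Cy3 and 0.297 in Cy5.

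**Figure D2:**
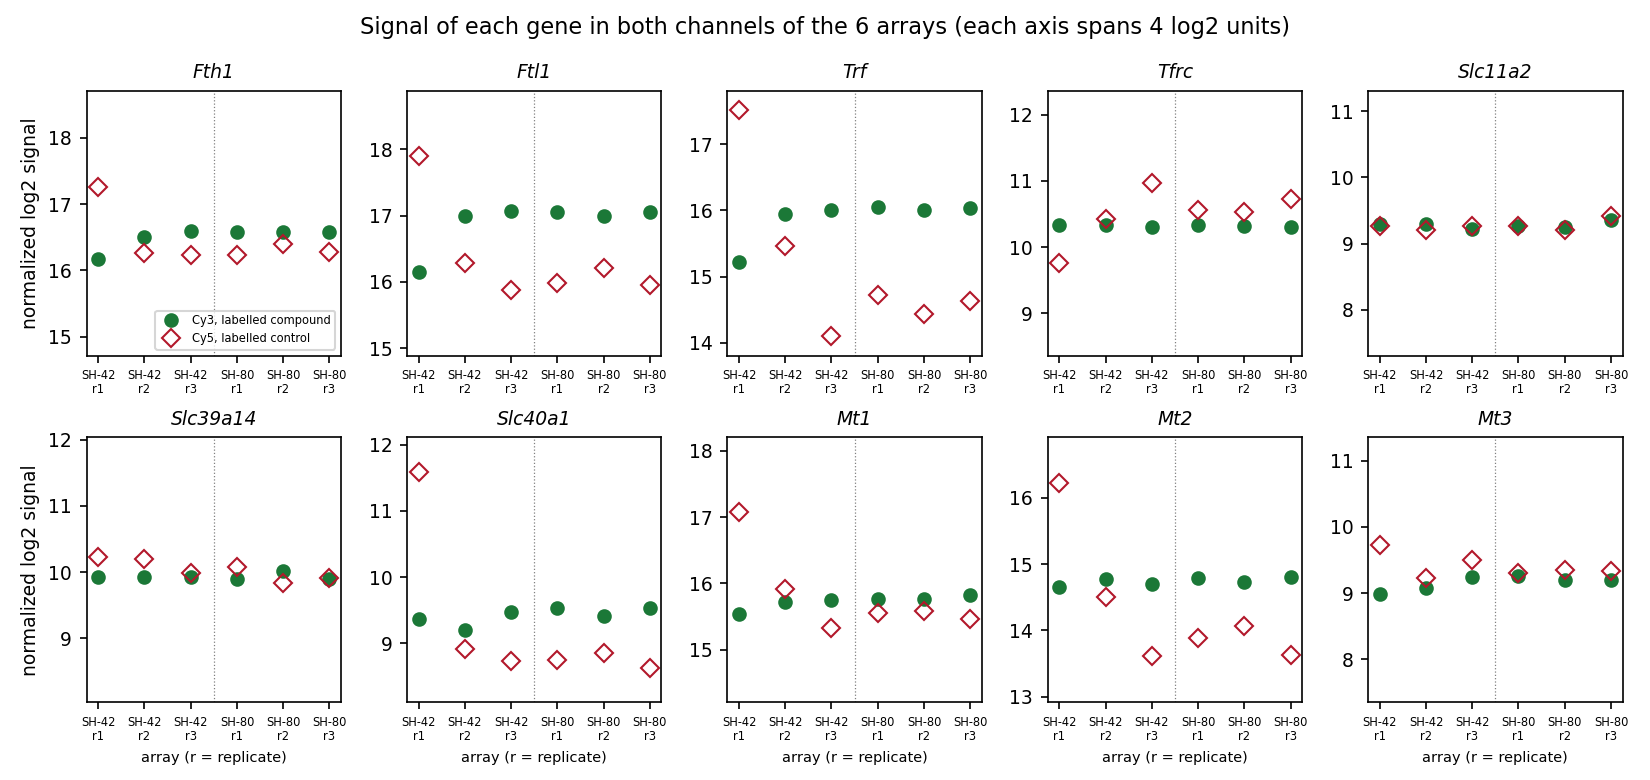
Normalized log2 signal of each gene in Cy3 (filled circles, labelled compound) and Cy5 (open diamonds, labelled control) on the 6 arrays, each axis spanning the same width. Cy3 signals span less than Cy5 signals, though those of Ftl1 and Trf dip on SH-42 replicate 1, and Cy5 signals of Ftl1, Trf, Slc40a1, Mt1 and Mt2 are highest on SH-42 replicate 1, at 17.52 for Trf against 14.10 to 15.46 on the other arrays.

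The log ratio was lowest on SH-42 replicate 1 for 8 of the 10 members and for 30.5% of all genes. It was highest there for 1 member, Tfrc, and for 36.8% of all genes. In Cy5, 8 members were brightest on that array, as were 28.4% of all genes. On the SH-80 arrays, 6 members were positive on all 3 (29.5% of all genes) and 2 were negative on all 3 (38.9% of all genes). Of the SH-42 arrays, no member (0) was positive on all 3, against 19% of genes, and 2, Slc39a14 and Mt3, were negative on all 3, against 28.2%.

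SH-42 against control gave no called member. The median of the 10 estimates was -0.11, beside -0.03 over all genes, and 3 were positive, as were 43% of all genes. Of all genes 0.602% passed (145 of 24078, with 14 higher and 131 lower), so a count of 0 members is near that background. At an unadjusted p under 0.05 there were 2 members, Slc39a14 and Mt3 of the 10, and 23.4% of all genes had such a p. Interval widths differed widely between members, from -0.10 to 0.15 for Slc11a2 to -1.66 to 1.72 for Trf.

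SH-80 against control also gave no called member (0 of 10), and here 14.7% of all genes passed (3532, with 1111 higher and 2421 lower). The median of the members was 0.26, beside -0.03 over all genes, and 6 were positive, as were 44.4% of all genes. No member (0) reached an unadjusted p under 0.05, as 35.5% of all genes did. The 4 largest estimates were those of Trf, Ftl1, Mt2 and Slc40a1, at 1.43, 0.99, 0.91 and 0.75 with SEs of 0.698, 0.518, 0.453 and 0.524. These SEs come from a spread shared with the SH-42 arrays. The SH-80 arrays themselves differed by an SD of at most 0.254 for every member.

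SH-42 minus SH-80 compares both compounds at the same dose and day, and any dye bias that every array shared drops out of it. The 10 members were tested with all genes, no gene passed (0% called), and 942 genes (3.91%) but no member (0) had an unadjusted p under 0.05. Estimates were negative for 8 of 10 members, with a median of -0.56 beside 0.02 over all genes, of which 53.6% were positive. Trf differed by -1.40 ± 0.987 (SE), with an interval of -3.78 to 0.99. For Slc40a1 the interval ran from -2.94 to 0.64, for Mt2 from -2.52 to 0.58 and for Ftl1 from -2.71 to 0.83, so differences of several fold in the negative direction lay inside. The limma adjusted p was 0.691 or above for all 10.

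**Figure D3:**
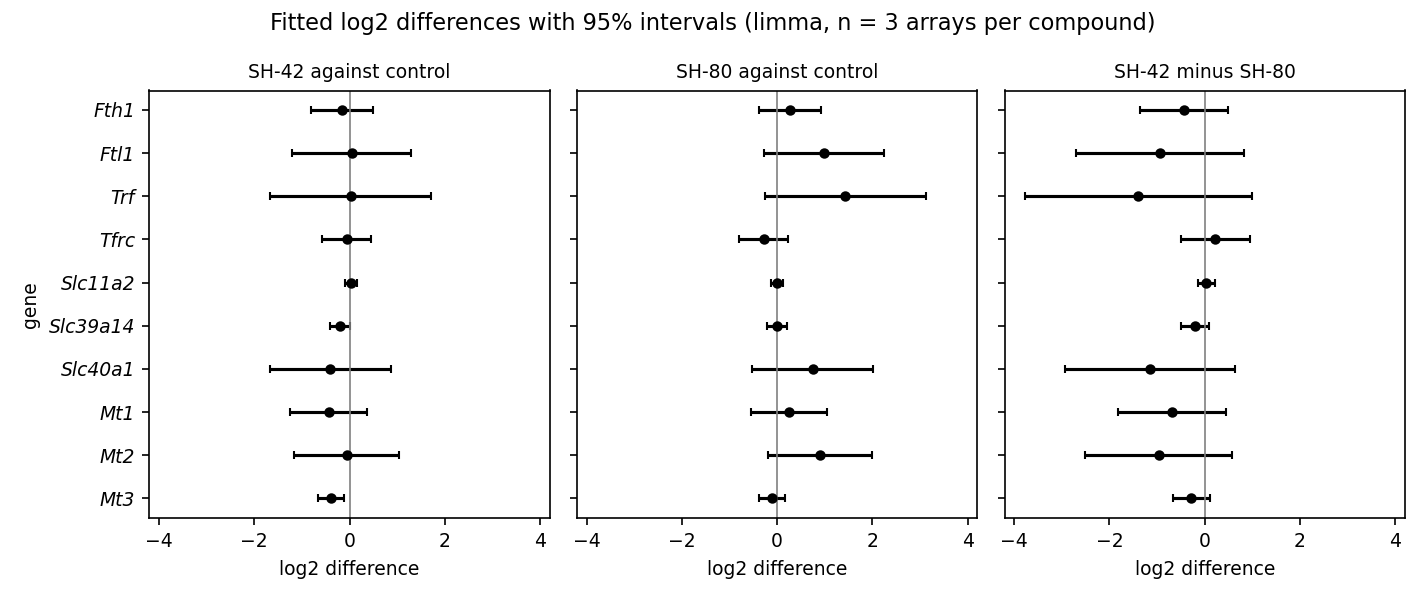
Fitted log2 differences of the 10 genes in the 3 comparisons, with 95% intervals from the limma model (3 arrays per compound). All intervals but those of Slc39a14 and Mt3 in SH-42 against control cross 0, and those of Ftl1, Trf, Slc40a1 and Mt2 are the widest, with Trf reaching from -3.78 to 0.99 in SH-42 minus SH-80.

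Without SH-42 replicate 1, several members passed the threshold. The SH-80 estimates are means of the same arrays and stayed as they were, but with the smaller shared spread Fth1, Ftl1, Trf, Slc40a1 and Mt2 passed as higher in Cy3, at limma adjusted p of 0.0150, 0.00659, 0.0106, 0.00836 and 0.0122. That is 5 of 10 members where 16% of all genes passed as higher and 38.8% in either direction. For SH-42, Ftl1 alone passed, at 0.95 (adjusted p = 0.0333), where 1.82% of genes did. The remaining SH-42 values were 0.31 for Fth1, 1.2 for Trf, -0.38 for Tfrc, 0.02 for Slc11a2, -0.17 for Slc39a14, 0.51 for Slc40a1, 0.11 for Mt1, 0.69 for Mt2 and -0.21 for Mt3. Fth1, Slc40a1, Mt1 and Mt2 were thus positive without that array and negative with it. In SH-42 minus SH-80 the members then lay between -0.24 (Slc40a1) and 0.03, and none (0) passed.

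Slide 2 holds SH-42 replicate 3 and the SH-80 arrays, and gave values within 1 slide. There 6 members, Fth1, Ftl1, Trf, Slc40a1, Mt1 and Mt2, passed as higher in the SH-80 comparison, with 16% of all genes, and Tfrc passed as lower, with 22.2%. On SH-42 replicate 3, which is a lone array assumed to vary like the SH-80 arrays, Ftl1 (1.19), Trf (1.90), Slc40a1 (0.74) and Mt2 (1.1) passed as higher, with 2.56% of all genes, and Tfrc (-0.67) as lower, with 2.24%. The difference between the compounds within this slide was 0.47 for Trf, 0.20 for Ftl1, 0.19 for Mt2 and -0.01 for Slc40a1, and no member passed (0). Slide 1 holds 2 SH-42 arrays and no SH-80 array, so the comparison of compounds has no value there.

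Median ratios of several lists of cell type markers moved with these genes on SH-42 replicate 1, though not every marker did. The median log2 ratio of 9 microglia and macrophage markers was -1.72, 0.58 and 2.00 on SH-42 replicates 1 to 3 and 1.47, 1.44 and 1.96 on SH-80 replicates 1 to 3. For 7 gliosis markers it was -1.94, -0.28 and 1.21 with SH-42, against 1.09, 0.67 and 0.60 with SH-80. Of these, Lif alone was positive on SH-42 replicate 1, at 0.18, and Edn2 was at 0.10, 0.23 and -0.55 with SH-80. The members' own median was -1.31, 0.16 and 0.39 with SH-42, against 0.28, 0.18 and 0.33 with SH-80. All 3 medians were thus lowest on SH-42 replicate 1. The summed Cy5 signal of the microglia markers was 16.58 (log2) on that array and 13.28 to 14.26 on the others, and that of the gliosis markers 17.01 and 13.74 to 15.68. In Cy3 the microglia sum ranged only from 14.76 to 14.93.

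Müller glia markers had a median of -1.09 on SH-42 replicate 1 and of 0.00 to 0.05 on the other arrays, where single markers varied. Glul was at -0.07, 0.03 and -0.50 with SH-42, against -0.40, -0.65 and -0.71 with SH-80. It was the 1 of 7 that passed in SH-80 against control, as lower (-0.59, limma adjusted p = 0.0324), with 10.1% of all genes. Vim was at 0.89, -0.46 and 1.07 with SH-80. The 5 pigment epithelium markers had a positive median on every array, 0.28 to 1.29, with Rdh5 alone negative on SH-42 replicate 1, at -0.68. Rod markers went the other way on that array, with a median of 0.63 there and of -0.16 to 0.10 elsewhere. The 4 endothelium markers had their lowest median there, -0.54 against 0.09 to 0.39, and their highest summed Cy5 signal, 14.26 (log2) against 12.99 to 13.31. Cdh5 (-1.32), Kdr (-0.82) and Cldn5 (0.09) were lowest there, but Pecam1 (-0.25) was lower on SH-80 replicate 1 (-0.37). In SH-80 against control Cldn5 passed as higher (0.50, limma adjusted p = 0.0476), with 4.61% of all genes. Pecam1 passed as lower (-0.26, 0.0461), with 10.1%, and Cdh5 and Kdr did not pass. The 5 skeletal muscle markers, from a tissue outside the retina, had medians of -2.02, 0.05 and 0.29 with SH-42, against 0.44, -0.82 and 0.23 with SH-80. Their summed Cy5 signal was 12.40 on SH-42 replicate 1 and 12.55 on SH-80 replicate 2, and 9.39 to 9.79 on the other 4 arrays. Lens markers, from a tissue next to the retina, had positive estimates in SH-80 against control for all 11, as had 44.4% of all genes. Of these 7 passed the threshold as higher, where 4.61% of all genes did. Their medians ran from 0.52 to 3.30 over the 6 arrays. On SH-80 replicate 2 Cryaa (-2.92), Mip (-2.03), Bfsp2 (-0.67) and Lim2 (-0.58) were negative, and the other lens markers positive. Of 7 red cell markers 4 were tested, with medians of -0.81 to 0.24 and no shared order with the members. The 5 oligodendrocyte markers had medians of -0.28 to -0.05. Slc4a1 of the red cell list (-0.35, limma adjusted p = 0.0421) and Mog of the oligodendrocyte list (-0.27, 0.0408) also passed as lower with SH-80. Lif of the gliosis list (0.79, 0.0429) and Rgr of the pigment epithelium list (0.67, 0.0486) passed as higher. No marker in these lists was below background in both channels on any array, apart from 1 or 2 of 5 skeletal muscle markers on 4 arrays. In bulk tissue, fewer cells of a type and less RNA per cell cannot be told apart. Whether these cell types had a part in the members' values was not tested.

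**Figure D4:**
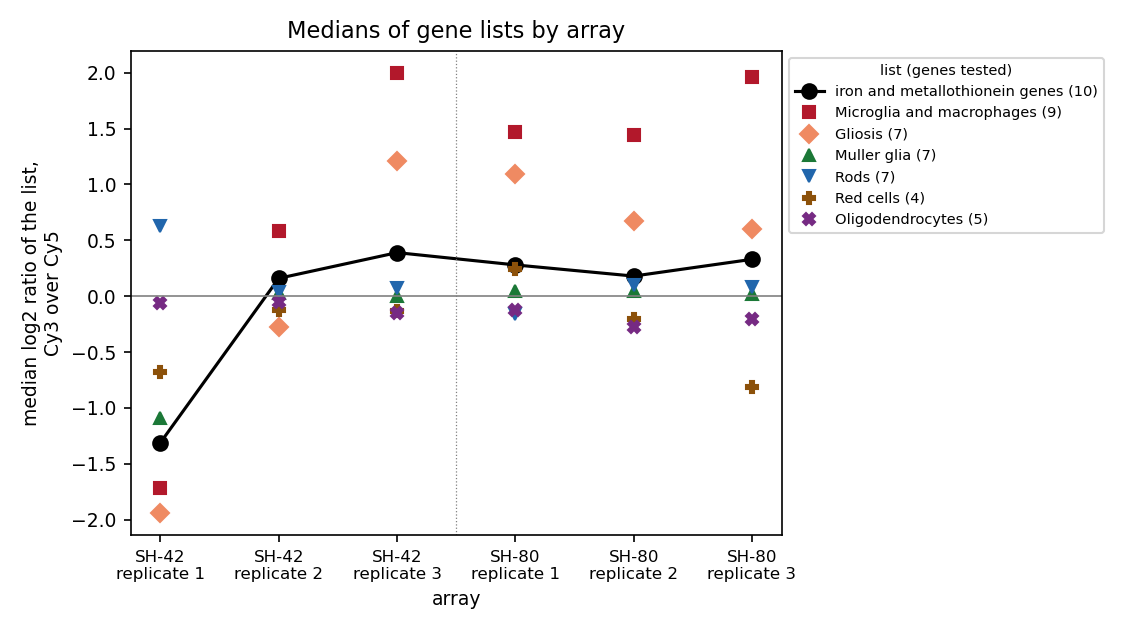
Median log2 ratio (Cy3 over Cy5) of the 10 iron and metallothionein genes (black line) and of 6 lists of cell type markers on each array. The members, the microglia list and the gliosis list are all lowest on SH-42 replicate 1, at -1.31, -1.72 and -1.94.

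The members were also set against each other, as a description over 6 arrays that share 1 outlying array. Fth1, Ftl1, Trf, Slc40a1, Mt1 and Mt2 correlated with each other at r from 0.959 to 0.996, and Tfrc with each of them at r from -0.955 to -0.902. Mt3 correlated with the 6 genes at r from 0.889 to 0.953, Slc11a2 at -0.470 to -0.242 and Slc39a14 at 0.472 to 0.671. Without SH-42 replicate 1 the range within the 6 genes was 0.341 to 0.964. With them, Tfrc then lay at -0.850 to -0.634, Slc11a2 at -0.984 to -0.601, Slc39a14 at -0.433 to 0.680 and Mt3 at -0.366 to 0.130. The Slc11a2 ratios behind this spanned only 0.138 log2 units. Its dimmer probe read 0.06 and 0.01 on SH-42 replicates 2 and 3 and 0.10, -0.03 and 0.23 on SH-80 replicates 1 to 3. That probe was thus highest on SH-80 replicate 3, where the probe used was lowest. Among 15906 other named genes, the one most like Mt1 was Lyz2 (r = 0.9996) and the one most like Mt2 was Lyz1 (r = 0.9998), both lysozyme genes. Lyz2 had ratios of -1.85, 1.34 and 2.78 with SH-42, against 2.41, 2.31 and 2.74 with SH-80. For Slc40a1 the likest genes were Arpc2 and Ano6, for Trf Itgb3 and Gna12, and for Ftl1 Ube2c and Atox1, a copper chaperone. Fth1 was most like Grhl3 and Vasp, Tfrc like Nop56 and 2300009A05Rik, Slc11a2 like Map3k5 and Strn, Slc39a14 like Fdxacb1 and Prkch, and Mt3 like Mlec and Isoc1.

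A list of 40 other genes of iron and haem handling, 35 of them tested, was read beside the members. In SH-80 against control 3 rose and 1 fell, or 4 of 35 where 14.7% of all genes passed. Lcn2, the siderophore-binding lipocalin, was 1.88 higher (limma adjusted p = 0.0454), with ratios of 1.69, 1.98 and 1.98 on SH-80 arrays. Steap4, a metalloreductase, was 1.08 higher (0.0456), and Flvcr1, a haem exporter, 0.28 higher (0.0328). Aco1, the iron regulatory protein that doubles as cytosolic aconitase, fell by 0.39 (adjusted p = 0.0405). The list's median was -0.03, the same as over all genes. These 4 calls, and every other call in SH-80 against control, ended when any 1 SH-80 array was left out, with the replicate block and with slide as a fixed block. Without SH-42 replicate 1 the counts of the 35 became 9 higher and 8 lower, where 16% of all genes passed as higher and 38.8% in either direction, with Cp, the ferroxidase ceruloplasmin, at 1.56 (adjusted p = 0.00731), Hamp, which encodes hepcidin, at -0.36 (0.00917) and Ncoa4, the ferritin autophagy receptor, at 0.32 (0.0089).

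In SH-42 against control none of the 35 passed (0), as 0.602% of all genes did, and their median was -0.09. An unadjusted p under 0.05 in limma was found for 6 of the 35, and for 23.4% of all genes. The 4 of smallest p were Hmox1 at -1.27 (limma adjusted p = 0.0928), Hmox2 at -0.21, Ireb2 at -0.41 and Flvcr1 at 0.20. Hmox1, the inducible haem oxygenase that frees iron from haem, had ratios of -1.96, -1.27 and -0.57 with SH-42, against 0.69, 0.53 and 0.34 with SH-80. Its groups did not overlap and had opposite signs, unlike those of any member, a pattern that 0.769% of all genes had. The difference between the compounds was -1.79 ± 0.336 (SE; adjusted p = 0.691 in limma), and -1.44 without SH-42 replicate 1. Next by p in that difference were Ncoa4 (-0.32), Hamp (0.42) and Cp (-1.36), none of them past the threshold. Cp followed the members, at -1.41, 0.50 and 1.51 with SH-42, against 1.67, 1.30 and 1.72 with SH-80.

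All 25 genes of a list of other zinc and copper handling were tested. One rose in SH-80 against control, Cox17, the copper chaperone of cytochrome oxidase, at 0.27 (limma adjusted p = 0.0448), and none fell (0). Of all genes 4.61% passed as higher in that comparison. The list's median was 0.12, beside -0.03 over all genes, and 19 were positive, as were 44.4% of all genes. After Cox17 came Atp7a, a copper pump, at 0.43 (limma adjusted p = 0.0732). Next were Slc30a3 at 0.45 and Slc30a6 at 0.17, both of the Slc30 family of zinc transporters. For SH-42 none passed (0), and the 4 of smallest p were Slc30a3 at 0.56, Slc39a13 at -0.28, Slc30a6 at 0.17 and Slc30a9 at 0.18. Between the compounds none passed (0), and Cox17 (-0.23), Slc31a2 (0.22), Slc39a1 (-0.73) and Atp7a (-0.31) had the smallest p. Without SH-42 replicate 1, 5 of the 25 passed as higher with SH-80, near the 16% of all genes that did so.

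**Figure D5:**
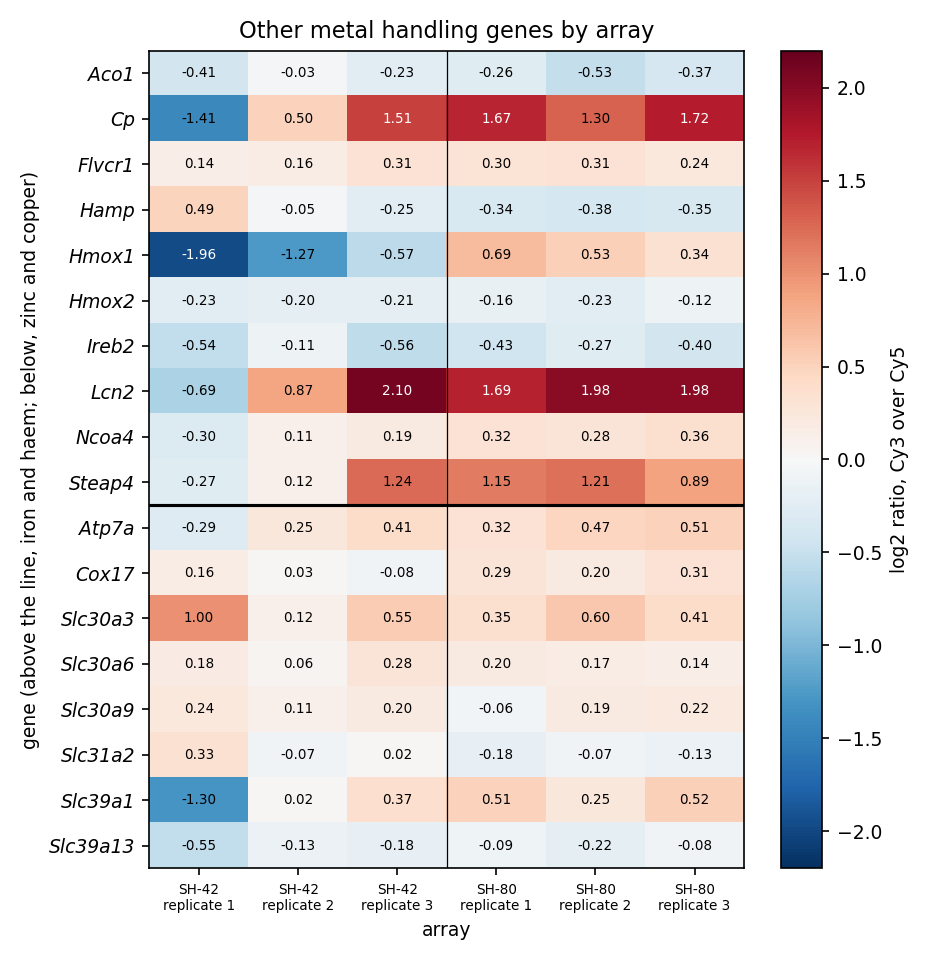
Log2 ratios (Cy3 over Cy5) of the 18 named genes of iron and haem handling (10, above the line) and zinc and copper handling (8, below it) on each array, with colour showing the same value. Hmox1 is negative on all SH-42 arrays and positive on all SH-80 arrays, while Cp and Lcn2 are negative on SH-42 replicate 1 alone.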

How the data were processed

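Median spot intensities and local backgrounds of both channels were read from the scanner files deposited by the authors. Per the file headers these also hold processed signal intensities and a log10 ratio of red over green and the software Agilent Feature Extraction 11.0.1.1. Version 9.3.2.1 stands in the submitters' processing notes. The value table deposited by the authors holds, judged from its values, log2 of Cy5 over Cy3. The medians of its SH-42 columns were -0.0531, -0.0606 and -0.0612, and those of its SH-80 columns -0.0611, -0.0464 and -0.0754.

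Background was corrected by normexp with an offset of 50, dyes were normalized within arrays by loess with control and outlier spots weighted 0, spots of a probe were averaged, and probes had to exceed background clearly (the scanner's own call) in Cy3 or Cy5 on 3 or more arrays. Of 39429 probes 66.1% matched a symbol in the table of RefSeq names, and the others kept the array's transcript name. Where a gene had several probes the brightest was tested. The 24078 resulting genes were fitted in limma 3.58.1 (R 4.3.3) with 1 coefficient per compound over the 6 arrays, two-sided, with Benjamini-Hochberg adjustment over all genes. The SE and 95% intervals are those of the model. Channel signals were scaled between arrays by Aquantile. Shares of patterns over arrays refer to the 24059 genes with values on all 6 arrays. The number of arrays limits the precision. Files were read with jsonlite 2.0.0 and version 1.17.8 of data.table, and sequences and figures were made with Python 3.11.15, pandas 2.3.3 and matplotlib 3.10.9. The fit was tested on simulated data.

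The 10 members are all named. Of the iron and haem and the zinc and copper lists, the 4 genes of smallest p per comparison are named, and for each member the 2 named genes of highest Pearson correlation. The members and lists were chosen with earlier results of these data known. Alternatives covered background correction, source of values, normalization, probe filter, probes per gene, single arrays left out, blocks for replicate number and slide, the arrays of a compound alone, each channel alone, and slide 2 alone, the last chosen after seeing the data.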

Additional observations from a re-analysis of the deposited data

Results flagged for a closer look

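In Cy5, the channel labelled control on all 6 arrays, the gap between the extreme array and the nearest other array took up an unusually large part of the whole range for 6 members, past Dixon's 95% critical value for 6 samples. The share was 0.900 for Slc40a1, 0.831 for Fth1, 0.801 for Ftl1, 0.662 for Mt1 and 0.659 for Mt2, with SH-42 replicate 1 the high array in each. For Slc11a2 the share was 0.702, with SH-80 replicate 3 the high array at 9.41 in a range of 0.202 log2 units. Chance alone would flag about 1 in 20 groups, but genes of 1 array are not independent of each other. The share of all genes past this value was not computed, so the count does not set the members apart. SH-42 replicate 1 was the brightest array in Cy5 for 28.4% of all genes.

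Hmox1, from the list of other iron and haem genes, was negative on all SH-42 arrays and positive on all SH-80 arrays, with a difference between the compounds of -1.79. The test of that difference over all genes gave a limma adjusted p of 0.691. The difference was -1.44 without SH-42 replicate 1 (0.945) and -1.09 within slide 2 (0.992).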

How the results depend on the processing

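No member passed in SH-42 minus SH-80 under any alternative run, and no gene did (0; 333 to 2578 genes at an unadjusted p under 0.05 with single arrays left out). Genes past the threshold in SH-42 against control numbered 3189 with no background correction, 0 with normexp at offset 0 (5302 unadjusted), 3219 with processed signals, 9036 with median centring, 4 with scaling between arrays, 3772 in the deposited table and 77 with the mean of all probes, against 145. In SH-80 against control they numbered 641 with scaling and 2101 with the strict probe filter, against 3532. With single arrays left out the counts ran from 0 to 438 for SH-42 and from 0 to 9344 for SH-80 (3037 to 5884 and 4664 to 12228 unadjusted). Both maxima came without SH-42 replicate 1; without any 1 of the SH-80 arrays both counts were 0. With the arrays of a compound alone the counts were 0 for SH-42 (2379 unadjusted) and 9197 for SH-80, and with slide 2 alone 1155 and 9197. Members past the threshold for SH-42 numbered 1 with no background correction, with processed signals and in the deposited table (Mt3), 4 with median centring (Fth1, Slc39a14, Mt1 and Mt3, all lower, as 30.3% of genes) and 5 with slide 2 alone. For SH-80 they numbered 7 with the SH-80 arrays alone or slide 2 alone. With single arrays left out 0 to 1 members passed for SH-42 and 0 to 5 for SH-80.

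Deviations of same-numbered arrays correlated at -0.154, -0.431 and 0.181, and those of differently numbered arrays at -0.301 to 0.345. With 3 arrays per compound and 1 outlying array, these values cannot decide whether replicate numbers pair the arrays. With the replicate block 0 genes passed for SH-42 and 0 for SH-80 (4209 and 7155 unadjusted) and no member (0). With slide as a fixed block 0 genes passed for either compound (4808 and 4891 unadjusted), and as a random block 128 and 2374.

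Signs turned as follows. Median centring, which moved the median of all genes to -0.245 for SH-42 and -0.148 for SH-80, gave for SH-42 -0.73 in Ftl1, -0.68 in Trf and -0.22 in Slc11a2, for SH-80 -0.16 in Fth1 and -0.16 in Mt1, and -0.03 in Slc11a2 between the compounds. Scaling between arrays gave for SH-42 0.13 in Fth1, 0.26 in Mt2 and 0.02 in Slc40a1, and for SH-80 0.00 in Slc11a2, as did normexp at offset 0. The mean of all probes gave 0.09 in Tfrc for SH-42, 0.05 in Slc11a2 for SH-80 and -0.01 in Slc11a2 between the compounds. Slide as a fixed block gave for SH-42 0.10 in Fth1, 0.52 in Mt2, 0.17 in Slc40a1 and 0.00 in Slc11a2, and for SH-80 -0.18 in Mt1, 0.03 in Slc11a2 and 0.02 in Tfrc. Between the compounds it gave the same values as slide 2 alone, 0.09 in Fth1, 0.20 in Ftl1, 0.17 in Mt1, 0.19 in Mt2, -0.03 in Slc11a2, -0.38 in Tfrc and 0.47 in Trf. Slide 2 alone gave for SH-42 0.37 in Fth1, 0.42 in Mt1, 1.1 in Mt2, -0.04 in Slc11a2 and 0.74 in Slc40a1. Cy5 alone gave SH-42 minus SH-80 values of 0.28 in Fth1, 0.64 in Ftl1, 1.09 in Trf, -0.22 in Tfrc, -0.05 in Slc11a2, 0.19 in Slc39a14, 1.01 in Slc40a1, 0.57 in Mt1, 0.91 in Mt2 and 0.16 in Mt3, a turn that follows from Cy5 being the denominator of the ratio, and Cy3 alone gave -0.02 in Slc11a2.

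With single arrays left out, SH-42 values ran from -0.42 to 0.31 in Fth1, -0.52 to 0.95 in Ftl1, -0.90 to 1.2 in Trf, -0.38 to 0.24 in Tfrc, 0.00 to 0.06 in Slc11a2, -0.97 to 0.51 in Slc40a1, -0.87 to 0.11 in Mt1 and -0.64 to 0.69 in Mt2. SH-80 values ran from -0.02 to 0.02 in Slc11a2 and -0.10 to 0.08 in Slc39a14. Between the compounds they ran from -0.69 to 0.03 in Fth1, -0.09 to 0.53 in Tfrc and 0.00 to 0.06 in Slc11a2. Apart from the slide and channel fits, where the construction shows it, the cause of these changes was not tested.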
